A study of Homo sapiens with 6 samples.

Results

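The genes described here are those that encode the protein components of the cytosolic ribosome. They were taken as the protein-coding genes of chromosomes 1 to 22 and X whose symbol is RPL or RPS with its number and, where present, a closing letter or digit, together with RPLP0, RPLP1, RPLP2 and RPSA. The rule found 84 genes among the 34913 genes with a transcript in the files, 52 of the large (60S) subunit and 32 of the small (40S) subunit, on 21 chromosomes. FAU, whose fusion product releases a ribosomal protein, and RPL36AL fall outside this naming rule and are given with the associated genes.

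The RNA came from THP-1, an established human acute monocytic leukaemia line that grows in suspension. Cells supplied by 2 cell banks were compared, ATCC in the United States (3 libraries) and DSMZ in Germany (3 libraries), and the labels name no other difference between the groups. All cells were untreated and grew in RPMI medium with 20% fetal bovine serum for 48 h and, after a split, for another 24 h. The 2 banks' cells were cultured side by side and the replicate expansions were separate, so replicates are cultures of 1 line per bank and not separate donors.

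A ribosome joins a small subunit, which decodes the messenger RNA, to a large subunit, which forms the peptide bonds. Its proteins are needed in fixed proportions, excess unassembled copies are broken down in the nucleus, and their genes are scattered over the genome rather than clustered. Many of their messenger RNAs begin with a cytidine and a run of pyrimidines, the 5′ terminal oligopyrimidine (TOP) tract, through which growth signals control their translation.

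The start windows below show this tract for 4 of the genes that differed most between the banks or departed from their neighbours. The window of RPL7L1, a paralogue that also departed from its neighbours, holds none. RPL10, which lay above its neighbours as given below, is not printed, and its window at chrX:154398050-154398079 holds no tract either. Each window holds 15 bases before the annotated start and 15 from it on, 5′ to 3′ (RefSeq, GRCh38.p14). Capitals mark a C followed by at least 6 pyrimidines that begins within 10 bases of the start, searched on the gene's own strand.
RPS24, chr10:78033848-78033877, plus strand: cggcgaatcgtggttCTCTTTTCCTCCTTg
RPL18, chr19:48619164-48619193, minus strand: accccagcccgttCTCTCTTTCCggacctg
RPS12, chr6:132814554-132814583, plus strand: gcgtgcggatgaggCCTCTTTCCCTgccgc
RPL22L1, chr3:170870181-170870210, minus strand: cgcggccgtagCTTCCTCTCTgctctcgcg
RPL7L1, chr6:42879601-42879630, plus strand: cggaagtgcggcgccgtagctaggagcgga

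Start windows matched 67 of the 84 genes, 11 of them with more than 1 window, giving 83 windows in all. The pyrimidine tract was present in 55 of the 83 windows (66.3%), against 13.1% of 22116 windows of other protein-coding genes. Over the full 300-base windows and on both strands, CCGGAA, the core of sites for ETS factors, was present in 53.0% against 21.1%. AAGATGGC was present in 8.43% against 3.51%, and TATAAA in 8.43% against 9.47%. Both RPS24, which was higher in DSMZ cells, and RPL18, which was lower, hold the tract.

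Library totals ranged from 23413428 to 37119721 estimated counts. Each of the 9 THP-1 markers examined reached 1 TPM (the deposited transcript abundance, corrected for transcript length and scaled to library size) in at least 1 library. CD14 was the lowest, at 0.236 to 1.79 TPM. Of 14 markers of other cell types, 5 reached 1 TPM, and CD3E, MS4A1, PF4 and CDH5 were at 0 in all libraries. The markers of other cells summed to 130.4 to 158 TPM in ATCC and 85.6 to 101 TPM in DSMZ, of which PECAM1, a gene that monocytes also express, made 75.8 to 150.4 TPM; the part of such cells in the results was not tested. ATCC replicate 2 stood apart within its group. Its ribosomal protein genes lay a median of 0.29 on the log2 scale above the other ATCC libraries, with 80 of 82 higher, whereas the median over all 14577 tested genes was 0.03. The part of this offset in the calls was not tested beyond leaving the library out.

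Ribosomal protein messages made up about as much of the RNA in DSMZ as in ATCC cells. Their summed level was 20.7%, 24.0% and 21.6% of all TPM in ATCC replicates 1 to 3 and 21.9%, 21.6% and 22.03% in DSMZ. The means were 22.1% ± 1.71 (SD, n = 3) and 21.9% ± 0.203 (SD, n = 3). The DSMZ values lay inside the ATCC range only through ATCC replicate 2, the highest of the 6. Every DSMZ library was above ATCC replicates 1 and 3, the closest at 21.63% against 21.61%. The large-subunit genes summed to 1.35, 1.31 and 1.33 times the TPM of the small-subunit genes in ATCC and to 1.28, 1.28 and 1.299 times in DSMZ. This ratio was higher in every ATCC library than in any DSMZ library. Levels also differed more from gene to gene in DSMZ. Over the 77 genes above 500 TPM in every library, the SD of log2 TPM was 0.750, 0.719 and 0.735 in ATCC and 0.809, 0.7996 and 0.804 in DSMZ.

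**Figure D1:**
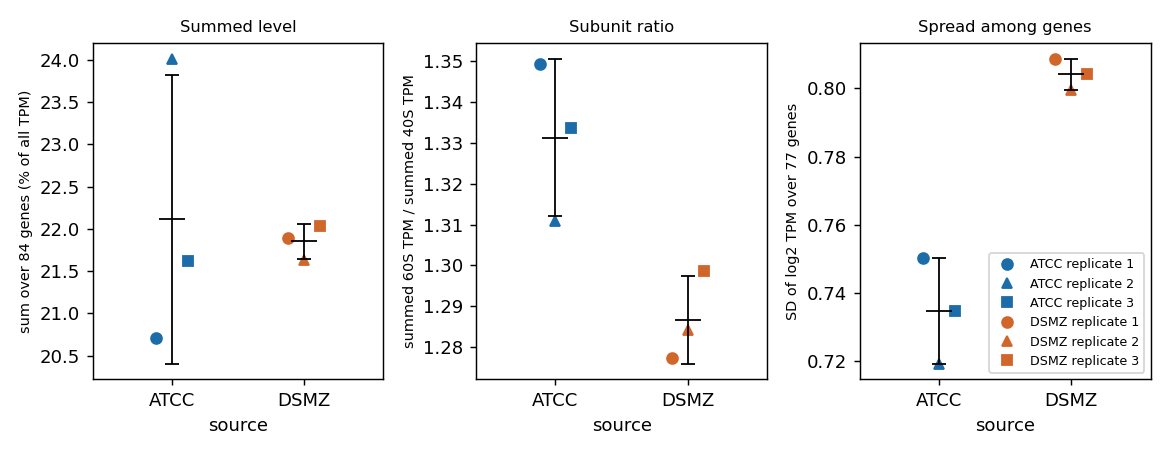
Summed TPM of the 84 genes as a percentage of all TPM (left), the ratio of summed 60S to summed 40S TPM (middle) and the SD of log2 TPM over 77 genes (right), by bank; points are libraries, bars are mean ± SD, and the axes do not start at 0. The summed level overlaps between the banks, with ATCC replicate 2 highest at 24.0%, while the ratio and the spread do not overlap.

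The similar sums covered differences of single genes in both directions. Between 2 libraries of the same bank, the SD of the log2 TPM ratio over the 77 genes was 0.0932 to 0.146 in ATCC and 0.0408 to 0.0488 in DSMZ. Between an ATCC and a DSMZ library it was 0.449 to 0.471 for each of the pairs, so the relative levels of these genes were set apart by bank far more than by replicate. Fold changes below are DSMZ over ATCC on the log2 scale, from edgeR's quasi-likelihood test on estimated counts, and a gene is called at a Benjamini-Hochberg adjusted p of at most 0.05 over all tested genes.

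Of the 84 genes, 82 had enough counts to be tested and 40 were called, 23 higher and 17 lower in DSMZ. Over all 14577 tested genes, 49.8% were called, 24.1% higher and 25.7% lower. The ribosomal protein genes were thus called about as often as other genes. Their median log2 fold change was -0.00083, beside 0.01 over all tested genes. Their range was narrow, from -1.07 (RPL18) to 0.97 (RPS24), and 2 genes, RPL18 and RPL8, were called with a change of at least 2-fold, against 21.3% of all tested genes. In 49 genes the normalized levels of the banks did not overlap, 27 higher and 22 lower in DSMZ, against 62.4% of all tested genes, and these 49 include all 40 called genes. Among small-subunit genes 9 were higher and 6 lower of 32, with a median of -0.05. Among large-subunit genes 14 were higher and 11 lower of 50, with a median of 0.07.

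The count of higher genes depended on scaling and on single libraries. With upper-quartile scaling, 11 were higher and 17 lower (20.7% and 28.1% of all tested genes), and with library totals alone, 16 and 21 (22% and 27.5%). Those scalings moved the median of all tested genes to -0.07 and -0.04. Without ATCC replicate 2, 36 were higher and 21 lower, beside 64% of all tested genes called (31.7% higher and 32.3% lower), and all 40 calls remained. Leaving out any other library gave fewer higher genes. There were 13 without ATCC replicate 1 (beside 24.2% of all tested genes called higher), 10 without ATCC replicate 3 (18.1%), 9 without DSMZ replicate 1 (18%), 12 without DSMZ replicate 2 (17.2%) and 12 without DSMZ replicate 3 (18.1%). Of the 40 calls, 10 were lost whenever any library but ATCC replicate 2 was left out, all of them higher in DSMZ: RPL22, RPS16, RPS9, RPL23A, RPLP1, RPL37A, RPS26, RPSA, RPS21 and RPS23. The first 5 of these were kept in 5 to 8 of 21 other settings. A correction for GC content gave 31 higher and 20 lower, beside 63.8% of all tested genes called (33.4% higher and 30.4% lower), and 38 of the 40 calls remained.

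RPS24, a small-subunit protein mutated in some families with Diamond-Blackfan anaemia, was the most raised gene in DSMZ. Its level was 3257, 3286 and 3271 TPM in ATCC and 6429.6, 6079.9 and 6374 TPM in DSMZ, a log2 fold change of 0.97 ± 0.08 (SE, adjusted p = 8.15e-05). The ATCC values were nearly equal and every DSMZ library was far above them. RPS12, a small-subunit protein of the head of the particle, was next, with 2232, 2724 and 2573 TPM in ATCC and 4204, 4122 and 4311 TPM in DSMZ (0.77 ± 0.11, adjusted p = 0.000988). RPL21, a large-subunit protein encoded on chromosome 13, was at 3165, 3441 and 3121 TPM in ATCC and 4611, 4652 and 4635 TPM in DSMZ (0.63 ± 0.11).

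Those 3 genes lie on 3 different chromosomes and show no overlap between the banks. RPL41, which encodes the smallest ribosomal protein, was at 3197, 3919 and 3581 TPM in ATCC and 5311, 5275 and 5517 TPM in DSMZ (0.62 ± 0.11, adjusted p = 0.00329). RPL26, at the mouth of the peptide exit tunnel, was at 2303, 2393 and 2547 TPM in ATCC and 3569, 3411 and 3634 TPM in DSMZ (0.57 ± 0.09). RPL19, which forms a bridge between the subunits, was at 2513, 2837 and 2548 TPM in ATCC and 3763, 3641 and 3761 TPM in DSMZ (0.55 ± 0.10). Every DSMZ library exceeded every ATCC library for each of these genes. RPL28, from the long arm of chromosome 19, was at 845, 1114 and 928 TPM in ATCC and 1305, 1354 and 1353 TPM in DSMZ (0.53 ± 0.14, adjusted p = 0.0171). For RPL28 the highest ATCC library was replicate 2, and the DSMZ libraries were close together. The RPL28 call was lost when ATCC replicate 3 or any DSMZ library was left out (adjusted p = 0.0576 to 0.0811). The call for RPL26 was lost with the GC correction, at 0.44 (adjusted p = 0.0722).

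RPL18, a large-subunit protein from chromosome 19, was the most lowered gene in DSMZ. Its level was 1289, 1524 and 1269.6 TPM in ATCC and 605, 606 and 607 TPM in DSMZ, a log2 fold change of -1.07 ± 0.13 (SE, adjusted p = 0.000401). ATCC replicate 2 was the highest library, and the lowest ATCC library was still well above every DSMZ library.

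All 4 genes on chromosome 8 were lower in DSMZ. RPL8, which lines the peptidyl transferase centre, was at 3445, 4286 and 3644 TPM in ATCC and 1825, 1796 and 1821 TPM in DSMZ (-1.05 ± 0.12, adjusted p = 0.000303). RPL7, near the central protuberance of the large subunit, was at 5899.8, 4780.4 and 5299 TPM in ATCC and 2583, 2592 and 2729 TPM in DSMZ (-0.92 ± 0.08, adjusted p = 0.000102). RPL30, at the interface between the subunits, was at 3873, 4719 and 4319 TPM in ATCC and 2302, 2211 and 2286 TPM in DSMZ (-0.87 ± 0.11). The banks were apart for each of these genes. ATCC replicate 2 was the lowest ATCC library for RPL7 and the highest for RPL8 and RPL30. RPS20, the small-subunit gene of the chromosome, was at 3352, 3934 and 3528 TPM in ATCC and 2538, 2498 and 2622 TPM in DSMZ, the smallest difference of the 4 at -0.46 ± 0.10.

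On the X chromosome 3 of 4 genes were lower in DSMZ. RPL36A, which contacts transfer RNA in the exit site, was at 2973, 2911 and 2792 TPM in ATCC and 1412, 1406 and 1508 TPM in DSMZ (-0.86 ± 0.09, adjusted p = 0.000225). RPS4X, the X-linked form of a small-subunit protein, was at 849.8, 1013 and 904 TPM in ATCC and 525, 516 and 513 TPM in DSMZ (-0.80 ± 0.10). RPL39, in the wall of the exit tunnel, was at 2419.6, 2538 and 2381 TPM in ATCC and 1469.9, 1364 and 1442 TPM in DSMZ (-0.74 ± 0.10). None of these genes overlapped between the banks. RPL10, which joins the large subunit late in its assembly, was not called: its levels of 1266, 1489 and 1327 TPM in ATCC and 1154, 1152 and 1179.8 TPM in DSMZ gave -0.20 ± 0.11 (adjusted p = 0.175), and its normalized counts overlapped although its TPM did not.

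**Figure D2:**
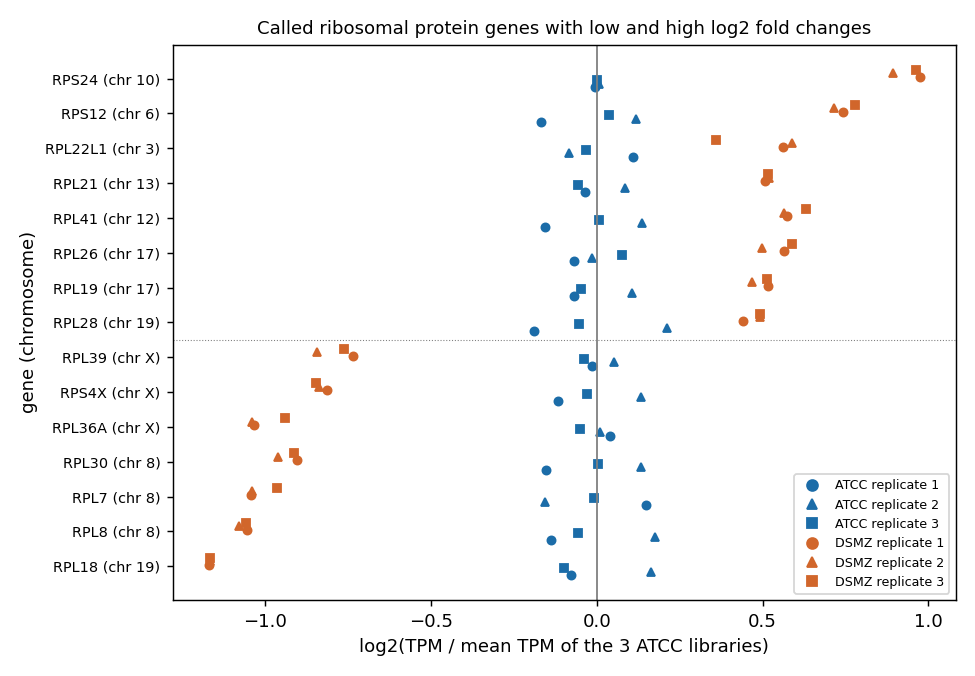
Level of 7 of the called genes with the lowest and the 8 with the highest log2 fold change, each point a library, as log2 of TPM over the mean of the ATCC libraries. In all 15 genes the DSMZ points (orange) are clear of the ATCC points (blue); DSMZ replicates lie closer together than ATCC replicates for most genes, and ATCC replicate 2 (blue triangles) is often the outer ATCC point.

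The 3 most abundant genes differed in direction. RPS18 was the most abundant of the family, at 6460.4, 7452 and 6447 TPM in ATCC and 6554, 6359 and 6379 TPM in DSMZ, and was not called (-0.04 ± 0.10, adjusted p = 0.788). RPS3, a protein at the messenger RNA entry channel, was next, at 6310.2, 8108 and 6974 TPM in ATCC and 5468, 5179 and 5303 TPM in DSMZ (-0.40 ± 0.12, adjusted p = 0.0231). RPL37A was the third, at 4380.3, 5344 and 4655 TPM in ATCC and 6027, 6033 and 6059 TPM in DSMZ (0.43 ± 0.13, adjusted p = 0.0322). RPS18 overlapped between the banks, and the other two did not. The RPS3 call was lost without ATCC replicate 3 or any DSMZ library (adjusted p up to 0.0983), and the RPL37A call without any library but ATCC replicate 2 (up to 0.123).

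On the chromosomes whose genes were lowered most, the ribosomal protein genes were at similar values. On chromosome 8 the 4 genes had a median log2 fold change of -0.90, and the 465 other tested genes of that chromosome a median of -0.85, with 73.5% of them called in either direction. On the X chromosome the medians were -0.77 for 4 genes and -0.82 for 488 others, of which 74.4% were called. On chromosome 9 they were -0.43 and -0.41, with RPL12 lowest at -0.73 (called) and RPS6, the substrate of S6 kinase, highest at -0.02 (not called). Chromosome 11 gave -0.26 and -0.36, with RPS3 lowest at -0.40 and RPS25 highest at -0.06, and 1 of 5 genes called, lower, beside 54.8% of the other genes called.

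Chromosomes 17, 3 and 10 were raised as a whole, and so were the medians of their ribosomal protein genes. On chromosome 17 the median was 0.42 for 6 genes and 0.38 for 888 others, and 4 of the 6 were called higher, from RPL23A at 0.30 to RPL26 at 0.57, beside 53.9% of the others called in either direction. RPL27, the lowest of the chromosome, was at 0.17 and not called. On chromosome 3 the median was 0.26 for 9 genes and 0.31 for 805 others, and 4 were called higher, RPSA, RPL15, RPL14 and RPL22L1, beside 51.7% of the others called. RPL24 was the lowest there, at 0.07. RPS24 is the only member on chromosome 10, where the 533 other genes had a median of 1.03, slightly above its own 0.97. No member was called lower on chromosomes 3, 10, 13, 17 or 20, and none was called higher on 8, 9, 11 or X.

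The pattern shows in the sums as well. The genes of chromosome 8 made up 8.003%, 7.38% and 7.77% of ribosomal protein TPM in ATCC and 4.22%, 4.205% and 4.29% in DSMZ. Those of chromosome X made up 3.63%, 3.31% and 3.43% in ATCC and 2.08%, 2.05% and 2.11% in DSMZ. The genes of chromosome 17 went the other way, with 7.56%, 7.34% and 7.69% in ATCC and 9.82%, 9.62% and 9.77% in DSMZ. The mean share was 7.93% in ATCC and 9.63% in DSMZ for chromosome 3, and 1.48% and 2.88% for RPS24 alone. With lower shares on some chromosomes and higher shares on others, the sum over the 84 genes stayed inside the range of the ATCC libraries. The upper end of that range is ATCC replicate 2 alone.

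**Figure D3:**
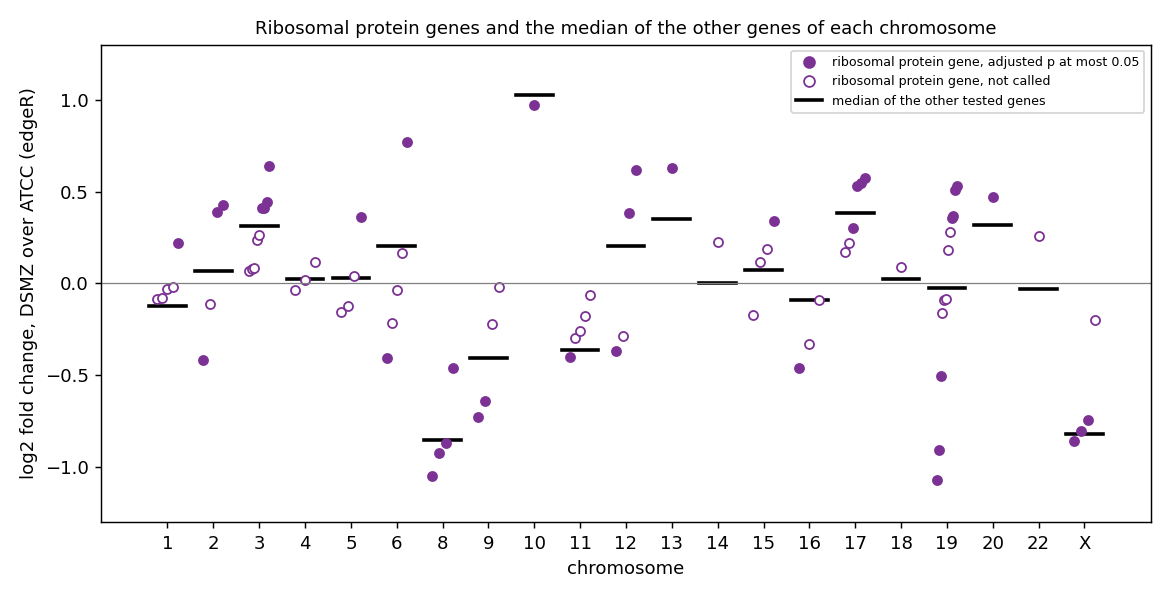
Log2 fold change (DSMZ over ATCC) of each tested ribosomal protein gene by chromosome; filled points are called, open points are not, and black bars are the median of the other tested genes of the chromosome. Points on chromosomes 8, 9, 11 and X lie below 0 and those on 3, 10, 13, 17 and 20 above it, most of them near the bars; RPL10, RPS20, RPS6 and RPS25 stand above the bars of X, 8, 9 and 11, and chromosome 19 spans -1.07 to 0.53 around a median of -0.03.

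Other chromosomes held genes of both directions. On chromosome 2, RPS7, a binder of MDM2, was lowest at -0.42 and RPL37A highest at 0.43, both called, around a median of 0.07 for the other genes. On chromosome 12, whose other genes were raised to a median of 0.20, the median of 4 members was 0.05, with RPL6 lowest at -0.37 and RPL41 highest at 0.62, both called. On chromosome 6, where the other genes had a median of 0.21, the median of 5 members was -0.04, with RPL7L1 lowest at -0.41 and RPS12 highest at 0.77, both called. When tested against the median of the others, 2 members lay below it and 1 above it on chromosome 12. On chromosome 6 there were 2 below and 1 above, and on chromosome 2 there was 1 below and 1 above. Over all tested genes, 22.7% lay below the median of their chromosome and 19.1% above it. Chromosomes 1, 5 and 15 each had 1 called gene, RPL22 at 0.22, RPS23 at 0.36 and RPLP1 at 0.34, all among the calls that needed every library but ATCC replicate 2. Their lowest genes, RPS27 at -0.08, RPS14 at -0.16 and RPS27L at -0.17, were not called.

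Across the 82 tested genes, the log2 fold change of a gene and the median of the other genes of its chromosome had a Pearson r of 0.72 and a Spearman rho of 0.62. With the median of the 10 Mb window in which the gene starts, r was 0.75 and rho 0.73. For the 65 genes with at least 10 other tested genes within 1 Mb on either side, r was 0.84 and rho 0.86 with the median of those neighbours. These values describe genes that share 6 libraries, chromosomes and in part neighbours. The sign was that of the 10 Mb window in 65 of 82 genes. The SD of the log2 fold changes was 0.446, and it was 0.304 after the window median was taken off. Among 2049 other genes above a lower bound of abundance, set near the lowest members, the SD was 0.655 and the r with the window median 0.57. That set had no upper bound, so members and other genes were not compared at matched abundance.

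**Figure D4:**
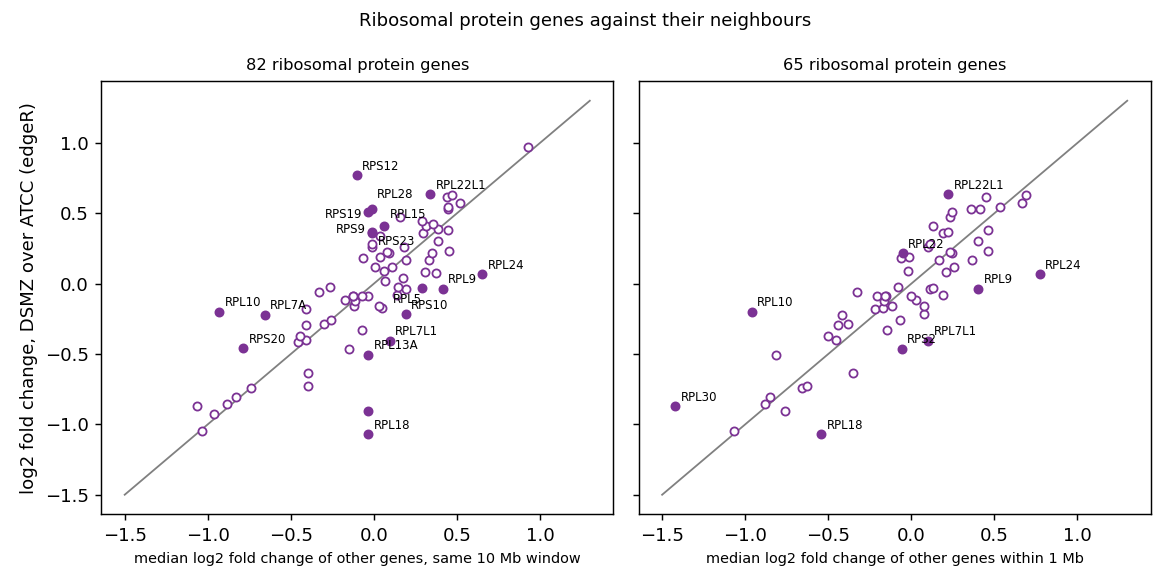
Log2 fold change of each ribosomal protein gene against the median log2 fold change of the other tested genes in its 10 Mb window (left, 82 genes) or within 1 Mb (right, 65 genes); the line marks equality, and filled points, most of them named, differ from their neighbours at an adjusted p of at most 0.05. Points lie closer to the line on the right, where RPL10 and RPL30 stand above it and RPL18, RPL7L1 and RPL24 below it.

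When each gene was tested against the median of its chromosome, 14 genes lay above it and 9 below, beside 41.8% of all tested genes called, 19.1% above and 22.7% below. Of the 40 genes called at first, 18 were called again and 22 were not, and 5 further genes (RPL10, RPS6, RPS25, RPLP0 and RPS10, named because they are few) were called only here. Against the 10 Mb window 10 lay above and 8 below, beside 38.9% of all tested genes (17.3% above and 21.6% below), and 12 of the 40 calls remained. Against genes within 1 Mb, a comparison added after the data were seen, 4 lay above and 5 below among 65, beside 40.2% (19.2% above and 20.9% below). There 6 of the 29 calls that could be compared remained. Without ATCC replicate 2, 38 genes lay above their chromosome, beside 28.5% of all tested genes. Without any other single library fewer did: 6 without ATCC replicate 1 (beside 19.8% of all tested genes), 2 without ATCC replicate 3 (13.4%), 2 without DSMZ replicate 1 (13.3%), 4 without DSMZ replicate 2 (12.6%) and 4 without DSMZ replicate 3 (12.9%). With the GC correction 25 lay above, and the share over all tested genes in that setting is not given here. The number above the chromosome is therefore not settled by these libraries.

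RPS24 was not called against its surroundings. Against its chromosome it lay at -0.06 (adjusted p = 0.605), and against its 10 Mb window, whose other genes had a median of 0.93, the adjusted p was 0.698. RPS12 departed from its surroundings under both, at 0.57 ± 0.11 above its chromosome (adjusted p = 0.00497) and 0.88 ± 0.11 above its 10 Mb window (adjusted p = 0.000817). RPL10 lay 0.62 ± 0.11 above the X chromosome (adjusted p = 0.00369), 0.73 above its window and 0.76 above its 48 neighbours within 1 Mb, whose median was -0.96. RPL10 was thus far less lowered than the genes around it. The others that differed from genes within 1 Mb were RPL30 (0.55), RPL22L1 (0.41) and RPL22 (0.27) above them, and RPL24 (-0.70), RPL18 (-0.53), RPL7L1 (-0.51), RPL9 (-0.44) and RPS2 (-0.41) below them. The medians around RPL30 and RPL24 rest on 10 genes each and that around RPL22L1 on 11. RPL22L1, RPL18 and RPL7L1 were also called against their chromosome and their 10 Mb window. RPL22 and RPS2 were called against their chromosome but not their window, and RPL24 and RPL9 against their window but not their chromosome. RPL30 was called against neither (edgeR, adjusted p = 0.924 and 0.216).

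Chromosome 19 held 12 members, 4 called higher and 3 lower, beside 39.5% of its other genes called in either direction. RPL18 (chr19:48615328-48619536) and RPL13A (chr19:49487554-49492308) were among those called lower. RPL13A was at 2362, 3059 and 2589 TPM in ATCC and 1738, 1772 and 1830.0 TPM in DSMZ (-0.50 ± 0.12, adjusted p = 0.0117). Genes within 1 Mb of them were lower too, with a median of -0.54 around RPL18 and -0.82 around RPL13A. Against those neighbours RPL13A was at 0.31 (adjusted p = 0.0710) and RPL18 at -0.53 ± 0.12 (adjusted p = 0.00994). The genes called higher on the same arm were RPS16, RPS19, RPS9 and RPL28. Of these, RPS16 and RPS9 were each kept in 6 of 21 other settings (adjusted p up to 0.172 and 0.198), RPL28 in 16 and RPS19 in 19. RPS19, the gene most often mutated in Diamond-Blackfan anaemia, was at 2972, 3887 and 3298 TPM in ATCC and 4839, 4797 and 4723 TPM in DSMZ (0.51 ± 0.12). Its neighbours within 1 Mb had a median of 0.24, and the difference from them was 0.26 (adjusted p = 0.108).

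The 7 genes with a closing L1 or L in their symbol encode paralogues of core proteins, several of them with restricted tissue use. RPL3L, the form of striated muscle, was at 0.0224 to 0.209 TPM, with 9 estimated counts over the ATCC libraries and 18 over the DSMZ libraries, and was too low to test. Its partner RPL3 was at 1494, 1776 and 1538 TPM in ATCC and 1924, 1899 and 1917 TPM in DSMZ (0.26 ± 0.11, adjusted p = 0.0761). RPL10L, the testis copy of RPL10, had 4 and 3 estimated counts and reached at most 0.242 TPM. These muscle and testis forms were thus near 0 in THP-1 of either bank.

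RPL22L1 was at 64.4, 56.4 and 58.4 TPM in ATCC and 88.2, 89.9 and 76.6 TPM in DSMZ, a log2 fold change of 0.64 ± 0.10 (adjusted p = 0.00133). RPL22, whose loss is known to raise RPL22L1, was at 2077, 2067 and 2004 TPM in ATCC and 2313, 2267 and 2391 TPM in DSMZ (0.22 ± 0.07, adjusted p = 0.0425). A link between the pair was not tested. The pseudogene RPL22P1 was at a mean of 1282 TPM in ATCC and 1338 TPM in DSMZ, so the level of RPL22 depends on how reads were divided. With pseudogene counts added, RPL22 was not called (0.18, edgeR, adjusted p = 0.106). Both members of this pair were higher in DSMZ, in every library. The RPL22L1 call was lost with the GC correction, at 0.41 (adjusted p = 0.102), and the RPL22 call was kept in only 5 of 21 other settings, with an adjusted p of up to 0.279.

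RPL7L1, which takes part in making the large subunit in the nucleolus, was lower in DSMZ, at 241, 231 and 241 TPM in ATCC and 172, 175 and 170.4 TPM in DSMZ (-0.41 ± 0.07, adjusted p = 0.00305). It lay 0.51 below its 37 neighbours within 1 Mb (adjusted p = 0.00114), which had a median of 0.10. Its partner RPL7 was lower in DSMZ too, as given above. RPL26L1 (52.4 to 63.1 TPM, adjusted p = 0.358) and RPL39L (33.8 to 44.1 TPM, adjusted p = 0.683) were not called, in contrast to their partners RPL26 and RPL39. The difference between partners was not tested. RPS27L, a target of p53, was at 168, 158 and 140.3 TPM in ATCC and 132, 122 and 134.1 TPM in DSMZ (-0.17 ± 0.10, adjusted p = 0.186), and RPS27 was not called either (4907 to 6113 TPM, adjusted p = 0.516).

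The files allow RPS24 to be followed by transcript. RPS24 makes several messages that differ at the end of the coding region, through a micro exon of 3 bases (chr10:78037439-78037441) and a cassette exon of 22 bases (chr10:78040204-78040225) between exon 4 (chr10:78037194-78037304) and the last exon (chr10:78040615-78040697), by GENCODE 29 on GRCh38. The coding ends show what each choice adds. Lower-case letters are the last 18 bases of exon 4 and capitals are all coding bases after it, with the stop codon.
RPS24-201, micro exon and cassette exon: gttggtgctggcaaaaagAAGTGA
RPS24-202, cassette exon without the micro exon: gttggtgctggcaaaaagTGA
RPS24-214, neither exon: gttggtgctggcaaaaagCCGAAGGAGTAA
With the cassette exon the reading frame meets a stop in its first bases, and without it the coding region runs on into the last exon.

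Of 14 RPS24 transcripts in the files, 5 had a mean share of at least 1% of the gene's TPM. RPS24-212, a transcript without an annotated coding region that joins exon 4 to the last exon, was the most abundant, at 1515, 1487 and 1489 TPM in ATCC and 2605, 2455 and 2740.1 TPM in DSMZ. RPS24-214 was at 724, 696 and 667 TPM in ATCC and 1369, 1435 and 1384 TPM in DSMZ. RPS24-208, which ends in exon 4, was at 558, 658 and 707 TPM in ATCC and 1329.6, 1189 and 1321 TPM in DSMZ. These 3 transcripts were all higher in each DSMZ library, as the gene was. RPS24-201, the main form with the cassette exon, was at 361, 336 and 299.9 TPM in ATCC and 1067, 940.2 and 872 TPM in DSMZ.

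The share of RPS24-201 in the gene was 11.1%, 10.2% and 9.17% in ATCC and 16.6%, 15.5% and 13.7% in DSMZ. Those shares did not overlap, but the log2 ratio of this transcript to the rest of the gene was not called (0.65 ± 0.13, limma, adjusted p = 0.140 over 57412 transcripts). Of the TPM of transcripts with either the cassette exon or the direct junction of exon 4 to the last exon, those with the cassette made up 16.5%, 16.5% and 15.5% in ATCC and 21.6%, 20.0% and 17.95% in DSMZ. The means were 16.2% ± 0.607 and 19.8% ± 1.81 (SD, n = 3 each), 3.67 percentage points apart, with every DSMZ library above every ATCC library. The level of this share depends on the transcripts counted. With protein-coding transcripts only it was 37.98%, 38.26% and 37.2% in ATCC and 44.4%, 40.4% and 39.5% in DSMZ. An exact permutation test of 3 against 3 libraries cannot go below p = 0.1.

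One RPS24 transcript, RPS24-202, was called, with a lower share in DSMZ (limma on the log2 ratio, adjusted p = 0.00196). With a replicate block 0 RPS24 transcripts were called, so this call was lost. It was at 74.1, 82.4 and 79.4 TPM in ATCC, which is 2.27%, 2.51% and 2.43% of the gene, and at 3.77e-07, 0 and 7.7e-08 TPM in DSMZ. In the annotation used for the exons, RPS24-202 differs from RPS24-201 by the micro exon of 3 bases and by a last exon of 102 in place of 83 bases. The quantified lengths, 510 bases for RPS24-202 and 514 for RPS24-201, do not follow from these differences. The exact sequences that were quantified are therefore not known here. If they are as alike as annotated, few reads can tell these transcripts apart, and a value near 0 can be an outcome of the estimation. Over all ribosomal protein genes 2 of 624 transcripts (0.321%) were called, against 0.491% of all tested transcripts. The other was RPL10-210, which made up 3.03%, 2.36% and 2.49% of RPL10 in ATCC and 6.72%, 7.73% and 7.58% in DSMZ, a log2 ratio higher by 1.51 (adjusted p = 0.0338).

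**Figure D5:**
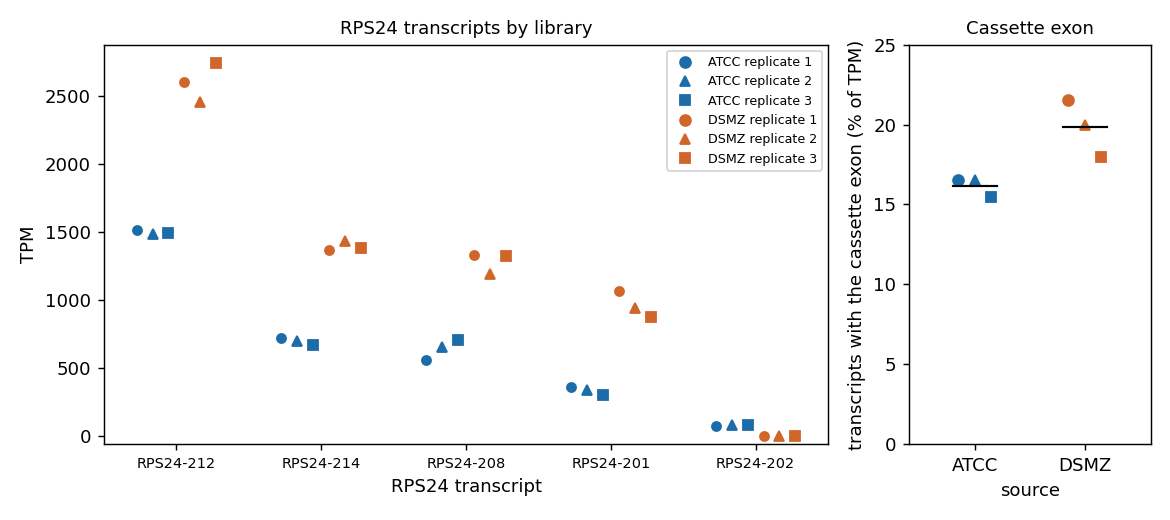
RPS24 transcripts with a mean share of at least 1% in TPM by library (left), and TPM of transcripts with the cassette exon as a percentage of those with the cassette exon or the direct junction (right), with black lines at the group means. The first 4 transcripts are higher in every DSMZ library, RPS24-202 is near 0 there, and the cassette share is 15.5 to 16.5% in ATCC and 17.95 to 21.6% in DSMZ.

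The split among transcripts of 1 gene was uneven for some members, which bears on their values. Protein-coding transcripts of RPL13A held 64.0, 255 and 236 TPM in ATCC and 275, 227 and 219 TPM in DSMZ, and its other transcripts held 2298, 2804 and 2353 TPM in ATCC and 1463, 1545 and 1611 TPM in DSMZ. With protein-coding transcripts alone RPL13A was at 0.39 (adjusted p = 0.520), the reverse of its direction as a gene. The protein-coding transcript of RPL39 held 959, 38.5 and 1.09 TPM in the ATCC libraries and 149, 362 and 227 TPM in the DSMZ libraries, which differ within a bank far more than the gene does. Summed over the family, protein-coding transcripts alone made up 14.9% ± 1.10 of TPM in ATCC and 14.9% ± 0.119 in DSMZ (SD, n = 3 each).

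Readthrough genes share exons with 3 members, so their reads may be divided between the annotations. RPS10-NUDT3 was at 182, 463 and 415 TPM in ATCC and 341, 438 and 409.6 TPM in DSMZ, beside means of 2386 and 2001 TPM for RPS10. RPL36A-HNRNPH2 reached at most 44.4 TPM and RPL17-C18orf32 at most 9.73 TPM.

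Genes outside the family whose pattern over the 6 libraries was most like RPS24 were FBXL20, PHYH, MSL1, ANXA7 and DBF4B, with Pearson r of 0.998 to 1.00 on log2 CPM (counts scaled to library size). PHYH and ANXA7 lie on chromosome 10, as RPS24 does, and the other three on chromosome 17. Such values mostly restate the difference between the banks: 291 of 14576 genes reached an r of 0.99. No other ribosomal protein gene did, and RPL26 was the nearest at 0.988.

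Genes that work with the ribosomal proteins also moved in both directions. Among 25 tested genes of the TOP class and ribosome-associated genes, 8 were higher and 6 lower in DSMZ, with a median of 0.06. For this list and those that follow, the shares over all tested genes are 24.1% higher and 25.7% lower, with a median of 0.01. VIM, which encodes vimentin, was highest at 3.603 ± 0.25 (adjusted p = 4.35e-05), with 25.8 ± 8.34 TPM in ATCC and 311 ± 18.7 TPM in DSMZ, followed by EIF4B, an initiation factor, at 1.00 and IPO5, an importin that carries ribosomal proteins into the nucleus, at 0.94. PABPC1, the poly(A)-binding protein, EIF3H and EEF1D, all on chromosome 8, were the lowest of the called genes, at -0.93, -0.74 and -0.56, and EIF3E of the same chromosome was at -0.57 and not called (adjusted p = 0.0678). FAU was lower (-0.44, adjusted p = 0.0288), while RPL36AL (0.06, adjusted p = 0.603) was not called.

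Of 23 genes for RNA polymerase I and III, which make ribosomal RNA, 2 were higher and 6 lower, with a median of -0.13. POLR3A, on chromosome 10, was highest at 0.99, POLR1D was at 0.30, and POLR3D (-1.14), CD3EAP (-0.76) and POLR1A (-0.57), subunits of these polymerases, were lowest. Of 79 ribosome assembly factors, 14 were higher and 24 lower, with a median of -0.02, and relative to their chromosomes 6 lay above and 18 below, beside 19.1% and 22.7% of all tested genes. BOP1 (-1.72) and RRS1 (-1.56), both on chromosome 8 and needed for the large subunit, and LAS1L (-1.203) on the X chromosome were lowest. DDX21 (1.24), NOP2 (1.00) and GTPBP4 (0.94) were highest. Of 36 genes that control translation and ribosome supply, 6 were higher and 8 lower, with a median of -0.05. MDM2, an E3 ligase that binds free ribosomal proteins, was highest at 1.10, followed by EIF4EBP2 at 1.03 and RICTOR at 0.93, and RPS6KA3 (-1.01), EIF4EBP1 (-0.96) and AKT1S1 (-0.69) were lowest. MTOR (adjusted p = 0.175), MYC (adjusted p = 0.633) and LARP1 (adjusted p = 0.775), which binds TOP messages, were not called.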

How the data were processed

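Poly(A) RNA of 6 THP-1 cultures was extracted with TRIzol and RNeasy columns and sequenced after strand-specific KAPA library preparation, as the labels' protocols state. Per the submitters' processing notes, bcl2fastq 2.20, Trimmomatic 0.35 and kallisto 0.43.0 were used with GRCh38 (annotation release: not given in the sources used here). Per transcript, the deposited estimated counts are unscaled and can be fractional, and the deposited TPM values are scaled to the same total in each library, per the file headers.

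Of 179973 transcripts, 163714 were assigned to GENCODE 29 genes by identifier and 14219 by symbol (2.42 to 2.85% of counts), and 2040 had no gene (0.183 to 0.201%) and were left out. Estimated counts were summed per gene, rounded and tested with edgeR 4.0.16 in R 4.3.3 (filterByExpr, TMM, quasi-likelihood, design with bank alone), with a biological coefficient of variation of 15.9%. Each SE is the absolute log2 fold change over the square root of F. For tests against neighbours, a fixed offset was used. It was the median of the other tested genes of the chromosome, 10 Mb window or 1 Mb to either side (at least 10 genes). The SE and adjusted p of those tests leave out the error of that median. Transcript usage was tested with limma 3.58.1 on log2 of (count + 0.5) over (rest of the gene + 0.5) for transcripts with a mean count of at least 10. Kallisto divides reads among similar transcripts, so values of transcripts, paralogues and pseudogenes carry that error, and totals bound counting error only: 3 counts over the libraries of a bank correspond to 0.0368 CPM in ATCC and 0.0338 in DSMZ.

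The members, gene lists and tests were chosen with earlier results of these data known. Named genes are RPS24, the 8 highest and 8 lowest called members with a mean of at least 1 CPM, the paralogues and their partners, the 3 most abundant members, the highest and lowest member of each chromosome with at least 4, and up to 3 highest and 3 lowest called genes of each list; members named for their position against neighbours, transcript classes or readthrough, and list genes not called, were chosen after their values were seen. Some genes that the rule names are not reported here. Alternatives were other scalings, filters, DESeq2 1.42.0, limma on log2(TPM + 0.5), transcript length, GC corrections with mgcv 1.9.3, transcript subsets, a replicate block and each library left out; centring within 1 Mb and adding pseudogenes came after the data were seen. Tests across many genes or transcripts were also tested on simulated data, whose coefficient of variation was taken from the gene-level fit to these libraries. The gene test recovered 18 of 67 simulated differences at 1.5-fold, 57 of 67 at 2-fold and 65 of 66 at 4-fold. It also called 9 genes that had been left unchanged. Differences near 1.5-fold can thus be missed. The usage test recovered 59 of 100 simulated differences at 2-fold and 100 of 100 at 4-fold. It also called 33 transcripts of genes without a simulated difference, so single usage calls need caution. Unchanged transcripts of the altered genes were not counted among these, and the division of reads among similar transcripts was not simulated. Figures were drawn with matplotlib 3.10.9.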

Additional observations from a re-analysis of the deposited data

How the results depend on the processing

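Of the 40 calls, 19 were kept in all 21 other settings, and 39 never changed sign; RPL13A reversed, to 0.39, with protein-coding transcripts only. The 23 higher genes became 11 with upper-quartile scaling and 9 to 36 without 1 library at a time, and the 17 lower genes 13 to 23. Relative to the chromosome, the 14 above became 4 against genes within 1 Mb, where 65 genes could be tested, 25 with the GC correction and 2 to 38 without 1 library at a time; the 9 below became 5 within 1 Mb and 5 to 14 without 1 library. Apart from the 1 Mb centring and the GC correction, whose construction differs as stated, the cause was not tested. For the 25 with the GC correction and the 5 to 14 below, the shares over all tested genes are not given here. The labels state no pairing of replicates. The correlations of deviations between same-numbered libraries were 0.0126, 0.0804 and 0.162. Without values for differently numbered libraries, these cannot decide whether the libraries are paired. With a replicate block 21 genes were higher and 17 lower, beside 7016 genes called over all tested genes in place of 7263. With that block 0 RPS24 transcripts were called in place of 1. The summed TPM fell to 14.9% ± 1.10 in ATCC and 14.9% ± 0.119 in DSMZ with protein-coding transcripts only. With pseudogenes added it was 22.7% ± 1.74 and 22.5% ± 0.203 (SD, n = 3 each). In both settings the DSMZ values lay inside the ATCC range only through ATCC replicate 2, and above ATCC replicates 1 and 3. The median log2 fold change was -0.08 with upper-quartile scaling and 0.08 without ATCC replicate 2. With 3 libraries a bank, the 42 genes not called are not shown to be equal between the banks.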

Other observations

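Pseudogenes of ribosomal protein genes, many of them processed copies that kallisto cannot fully separate from their parents, numbered 1144 in the files. Together they held 5517 to 6364 TPM, which is 2.49 to 2.83% of the TPM of members and pseudogenes, without a difference between the banks beyond the spread of libraries. The 5 most abundant, RPL9P9, RPL22P1, RPL3P4, RPL41P2 and RPL21P16, held 88.2 to 90.7% of it. RPL9P9 alone was at 2487 ± 214 TPM in ATCC and 2346 ± 83.4 TPM in DSMZ (SD, n = 3 each), beside 3377 and 3038 TPM for RPL9, so the level of RPL9 depends on how reads were divided. With pseudogene counts added to their parents, 18 members were higher and 17 lower, beside 7205 genes called over all tested genes. RPS23P8, on the X chromosome, was listed at 103, 79.0 and 0 TPM in ATCC and at 0 in each DSMZ library.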
